A study of Mus musculus with 6 samples.

Results

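The antibody genes of the liver were followed through 6 single-cell RNA libraries as a set of 8 genes chosen by symbol. The set holds the light chain constant genes Igkc, Iglc1, Iglc2 and Iglc3, the heavy chain constant genes Ighm, Ighd and Igha, and Jchain, which encodes the joining chain. All 8 were present in every library, out of 25369 genes. They were chosen with earlier results of these data known, among them the level of Igkc in stellate cells of treated and control mice and the B cell origin of the transcripts. Those values are therefore described below without a test. The livers came from wild-type male mice that were 8 to 10 weeks old when the inferior vena cava was partially ligated (pIVCL), an operation that congests the liver. After 2 weeks an osmotic pump delivered either the vehicle DMSO or CWHM-12, an inhibitor of every integrin with the αV subunit, at 100 mg/kg per day. Treatment lasted 4 weeks, at the end of which the livers were collected. Each treatment had 3 libraries, and all 6 libraries came from ligated mice. DMSO 1, DMSO 2 and CWHM-12 1 form the batch labelled 2024.6, and DMSO 3, CWHM-12 2 and CWHM-12 3 the batch labelled 2024.12. Livers were digested with pronase and collagenase, and the suspension was set to 90% nonparenchymal cells and 10% hepatocytes, so the share of hepatocytes describes the preparation.

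Each library held 10000 barcodes and between 28220477 and 48100436 unique molecular identifiers (UMIs, each standing for 1 captured transcript). No pair of libraries shared more than 5 barcodes. Of the 60000 barcodes, 37982 were kept as cells and grouped into 42 clusters without the help of any of the 199 immunoglobulin genes or Jchain. Every library is labelled as coming from a mouse, with no identifier that tells the animals apart, so p-values measure the spread between libraries, which may be technical. Intervals and limits based on 3 counts cover counting error only. The cells named B cells numbered 2606, with 586, 352 and 766 in DMSO 1, 2 and 3 and 497, 323 and 82 in CWHM-12 1, 2 and 3. All 10 fixed B cell markers had UMIs in them, and 9 of the 10 were highest in them among 18 cell classes. No cluster was named plasma cells.

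As background, an antibody pairs heavy chains with light chains that are either kappa (Igkc) or lambda (Iglc1, Iglc2 and Iglc3), and a B cell normally makes only a given heavy and a given light chain. Naive B cells carry IgM and IgD, whose heavy chains Ighm and Ighd are spliced from the same precursor transcript, while cells that have switched class carry IgG, IgA or IgE. Plasma cells devote much of their RNA to secreted antibody, and the J chain links IgM and IgA into polymers that the receptor Pigr carries across epithelium, in the liver into bile. Transcripts of the unrearranged heavy chain locus are also known outside the B lineage, in T cells and plasmacytoid dendritic cells.

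The lambda genes are near copies, and this bears on how their UMIs can be told apart. In the GENCODE M21 annotation (build GRCm38, whereas the deposited files use GRCm39) the constant genes of the lambda locus lie on the minus strand of chromosome 16: Iglc2 at chr16:19198396-19200351, Iglc3 at chr16:19065230-19065681 and Iglc1 at chr16:19061618-19062071. The last 120 coding bases before the stop codon are shown 5′ to 3′, with capitals where a base differs from Iglc2 at the same position counted from the stop codon.
Iglc2: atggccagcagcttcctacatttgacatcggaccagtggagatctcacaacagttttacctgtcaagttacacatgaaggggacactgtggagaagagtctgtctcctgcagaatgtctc
Iglc3: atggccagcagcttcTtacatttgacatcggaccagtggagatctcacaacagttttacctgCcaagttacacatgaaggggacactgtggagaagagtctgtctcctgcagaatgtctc
Iglc1: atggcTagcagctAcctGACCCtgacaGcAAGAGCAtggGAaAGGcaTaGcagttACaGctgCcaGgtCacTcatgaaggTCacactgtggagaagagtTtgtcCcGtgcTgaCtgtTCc
These stretches lie at chr16:19198539-19198658 for Iglc2, chr16:19065368-19065487 for Iglc3 and chr16:19061755-19061874 for Iglc1. Iglc3 differs from Iglc2 at 2 of the 120 positions (98.3% identity) and Iglc1 at 38 (68.3%). Over 314 coding bases Iglc2 and Iglc3 differ at 11 (96.5% identity). How the counting assigned reads that match both is not given in the sources used here, so the split between Iglc2 and Iglc3 is uncertain and their sum is used where possible. The other members lie elsewhere: Igkc on the plus strand at chr6:70726435-70726966, Jchain on the minus strand at chr5:88519809-88527891, and Igha, Ighd and Ighm on the minus strand at chr12:113254830-113260236, chr12:113406604-113416324 and chr12:113418558-113422730.

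The 8 genes fell into 2 patterns of origin. Iglc2, Iglc3, Ighm and Ighd came mostly from B cells, which held 84.6% of 10911 Iglc2 UMIs, 81.2% of 9305 Iglc3 UMIs, 73.7% of 43719 Ighm UMIs and 89.2% of 17235 Ighd UMIs. Igha and Jchain came almost wholly from 27 antibody-rich barcodes, defined as those in which the heavy and light chain constant genes and Jchain made up at least 10% of all UMIs. Those 27 barcodes held 97.4% of 14023 Igha UMIs and 97.8% of 9527 Jchain UMIs, whereas B cells held 0.720% and 0.472%. Igkc was shared between both sources, with 57.7% of its 194449 UMIs in B cells and 34.9% in the 27 barcodes. Iglc1 had 26.3% of 11576 UMIs in B cells and 68.9% in the 27 barcodes. Cells of all other kinds held 2.86% of Igkc, 10.6% of Ighm and 10.3% of Iglc3 UMIs, and the rest lay in barcodes that were not kept.

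The source of Igkc differed between libraries. In DMSO 1, 2 and 3, B cells held 87.4%, 54.8% and 59.8% of the Igkc UMIs. In CWHM-12 1 they held 86.5%, and in CWHM-12 2 and 3 they held 21.4% and 18.2%, where 10 and 5 antibody-rich barcodes held 73.3% and 69.8%. Both libraries with a low B cell share of Igkc were treated and from batch 2024.12, and the third library of that batch, DMSO 3, stood close to DMSO 2.

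The 27 antibody-rich barcodes were chosen by the members themselves and are described without a test. Antibody constant genes and Jchain made up 11.7% to 80.9% of their UMIs, with a median of 62.2%, against a median of 2.74% and a highest value of 7.76% in B cells. The threshold of 10% fell in a thin range: the lowest member stood at 11.7%, the next at 35.0%, and the highest barcode left out at 9.92%. That barcode had been classed as a stellate cell of CWHM-12 3. The other 50 of the 51 barcodes between 5% and 10% were B cells.

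Each of the 27 carried essentially a given heavy chain and a given light chain. The leading heavy chain class held at least 96.7% of the heavy chain UMIs in all 27, and the leading light chain gene held at least 95% of the light chain UMIs in 26. The exception was barcode 2 of DMSO 2, in which Iglc1 held 87.5%. IgA led in 10 barcodes and IgM in 9, and IgG led in the other 8, of which 4 were Ighg1, 3 Ighg2b and 1 Ighg2c. Light chains were kappa in 24 and Iglc1 in 3, all 3 of them with Ighm. All 10 IgA barcodes used Igkc.

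Jchain had UMIs in all 27, from 12 to 920 in a barcode. IgG is secreted without the J chain, yet the 8 IgG barcodes held Jchain too, at a lower median relative to the heavy chain. The median ratio of Jchain to heavy chain UMIs was 0.349 in the 10 Igha barcodes (range 0.246 to 0.604), 0.380 in the 9 Ighm barcodes (0.111 to 1.26), 0.158 in the 4 Ighg1 barcodes (0.0557 to 0.347) and 0.129 in the 3 Ighg2b barcodes (0.0531 to 0.135). The ranges overlapped, except that the Ighg2b and Igha barcodes did not overlap. Barcodes of 1 library share a mouse and a preparation, so these ratios are a description.

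Genes that were not used to choose these barcodes gave the following shares, at a median of 6822 UMIs in the 27 barcodes and 2377 in B cells. Derl3, which serves the secretory pathway of plasma cells, had UMIs in 24 of the 27 and in 0.384% of 2606 B cells. Xbp1, of the same pathway, had UMIs in 26 and in 14.0% of B cells, and Tnfrsf17, a survival receptor of plasma cells, in 11 and in 0.0384%. Ms4a1, a surface protein of B cells that plasma cells lack, had UMIs in 6 of the 27 and in 84.8% of B cells. Cd79a, the signalling partner of membrane antibody, did not set them apart, with UMIs in 24 of the 27 and in 97.9% of B cells. Of the set itself, Ighd had a UMI in 1 of the 27 and in 94.6% of B cells.

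The antibody-rich barcodes were spread unevenly over libraries and over the filters. DMSO 1, 2 and 3 held 1, 3 and 5 of them and CWHM-12 1, 2 and 3 held 3, 10 and 5. The IgA barcodes came from 3 libraries, all of batch 2024.12: DMSO 3 had 1, CWHM-12 2 had 6 and CWHM-12 3 had 3. All 9 in the DMSO libraries were removed by the doublet score. Of the 18 in the CWHM-12 libraries, 14 were kept, 1 was removed by the doublet score, 1 by its mitochondrial share and 2 because they had under 300 genes. The 14 kept ones all lay in an unnamed cluster of 285 cells whose leading genes were those of granulocyte precursors and dividing cells, such as Mpo, Elane and Top2a. Of the fixed marker lists, this cluster scored highest for dividing cells (4.58) and next for plasma cells (1.99).

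**Figure D1:**
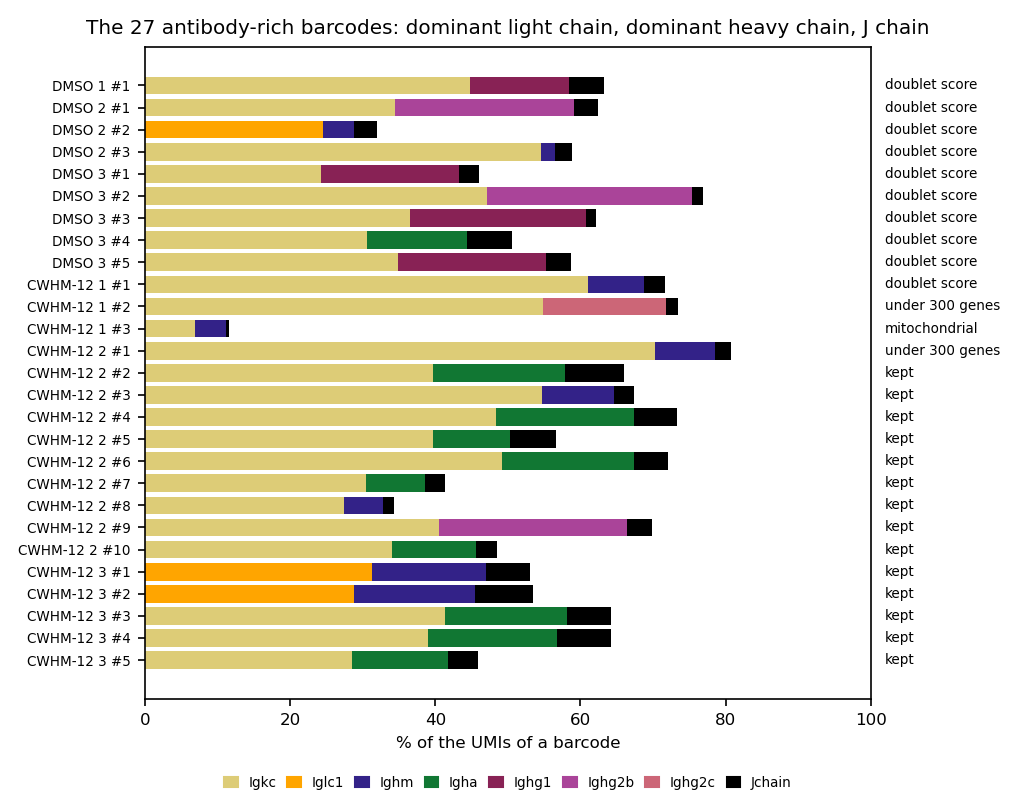
Each bar is 1 of the 27 antibody-rich barcodes, with the percent of its UMIs from its leading light chain gene, its leading heavy chain gene and Jchain, and at the right whether it was kept as a cell or which filter removed it. Kappa (Igkc) leads in 24 barcodes and Iglc1 in 3, and all 9 DMSO barcodes were removed by the doublet score.

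Plasma-like cells defined without any antibody gene, as kept cells other than plasmacytoid dendritic cells with UMIs of both Derl3 and Tnfrsf17, numbered 10 among 29449 cells other than hepatocytes. DMSO 1, 2 and 3 had 0, 1 and 0 and CWHM-12 1, 2 and 3 had 0, 4 and 5. Their share was 0.0125% ± 0.0217 (SD, n = 3) with DMSO and 0.0445% ± 0.0422 (SD, n = 3) with CWHM-12, and the groups overlapped. An exact two-sided permutation test over the 3 and 3 libraries gave p = 0.4, where 0.1 is the smallest p that 20 assignments allow. Within batch the difference was -0.0188 percentage points in 2024.6 and 0.0667 in 2024.12. Of the 10 cells, 9 were antibody-rich barcodes. Before the doublet score was applied there were 12, the added 2 in DMSO 3.

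In B cells Igkc stood far above all other members. Its level was 18227, 20592 and 16193 UMIs per 1000000 UMIs of the class (CPM) in DMSO 1, 2 and 3 and 16628, 18528 and 19143 CPM in CWHM-12 1, 2 and 3, so the 2 groups overlapped fully. Igkc had a UMI in 95.4% to 97.7% of the B cells of a library, at a median of 1101 to 3084 UMIs a cell. In hepatocytes, which should lack it, it had a UMI in 1.85% to 5.44% of cells, at a median of 1144 to 2207 UMIs. UMIs count captured transcripts rather than fragments, so levels were not divided by gene length.

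Lambda light chains had a lower level. Iglc1 stood at 407, 369 and 415 CPM with DMSO and at 660, 468 and 407 CPM with CWHM-12, and CWHM-12 1 was the highest library. Iglc2 stood at 1290, 1711 and 1389 CPM with DMSO and at 1545, 1455 and 1297 CPM with CWHM-12. Iglc3 followed Iglc2, at 1041, 1426 and 1188 CPM against 1241, 1148 and 843 CPM. The lambda genes together made up 13.1%, 14.5% and 15.6% of the light chain UMIs of B cells in DMSO 1, 2 and 3 and 17.2%, 14.2% and 11.7% in CWHM-12 1, 2 and 3. The means were 14.4% ± 1.28 and 14.4% ± 2.72 (SD, n = 3 each), and the exact two-sided permutation test gave p = 1. The difference was 3.37 percentage points in batch 2024.6 and -2.61 in batch 2024.12.

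Cell by cell, most of this lambda signal did not come from lambda B cells. Of 2555 B cells with at least 10 light chain UMIs, 2431 were kappa-dominant, with over 50% of light chain UMIs from Igkc. The other 124 (4.85%) were lambda-dominant, 64 of them with Iglc1 and 60 with Iglc2 or Iglc3 as the leading lambda gene. By library, 3.65%, 3.80% and 4.38% of the cells were lambda-dominant with DMSO and 8.30%, 4.23% and 3.66% with CWHM-12, with CWHM-12 1 highest.

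Within the kappa-dominant B cells, 2371 of 2431 (97.5%) also had a UMI of Iglc2 or Iglc3. These 2 genes made up 11.7% of the light chain UMIs of kappa-dominant cells, between 9.38% and 13% in each library, whereas Iglc1 made up 1.22%. Of the 24 kappa barcodes among the antibody-rich ones, 22 (91.7%) had a UMI of Iglc2 or Iglc3. In these 24, Iglc2 and Iglc3 made up 0.620% of light chain UMIs and Iglc1 0.263%. The presence of Iglc2 and Iglc3 beside kappa was thus seen in B cells of every library and in most kappa antibody-rich barcodes. Their share of light chain UMIs was far lower in the latter, where much more Igkc enters that share. The cause of this presence was not tested.

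Heavy chain transcripts of B cells were those of IgM and IgD. Ighm stood at 5071, 3036 and 5321 CPM in DMSO 1, 2 and 3 and at 5326, 5046 and 5265 CPM in CWHM-12 1, 2 and 3, with DMSO 2 apart from all the others. Ighd stood at 2206, 2449 and 2694 CPM with DMSO and at 2346, 2072 and 1727 CPM with CWHM-12. Ighd made up 30.3%, 44.7% and 33.6% of Ighm and Ighd UMIs together with DMSO and 30.6%, 29.1% and 24.7% with CWHM-12. The mean share was 36.2% ± 7.51 with DMSO and 28.1% ± 3.06 with CWHM-12 (SD, n = 3 each). CWHM-12 1 lay above DMSO 1, so the groups overlapped, and the exact two-sided permutation test gave p = 0.2. The difference was -6.90 percentage points in batch 2024.6 and -6.71 in batch 2024.12.

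Igha and Jchain were near the limit of detection in B cells. Igha stood at 19.1, 22.1 and 7.65 CPM with DMSO and at 16.5, 22.7 and 29.5 CPM with CWHM-12, from 101 UMIs in all. A given cell held 16 of the 31 UMIs of DMSO 1 and 15 of the 27 UMIs of CWHM-12 1. Igha made up 0.249% ± 0.149 of heavy chain UMIs with DMSO and 0.313% ± 0.0988 with CWHM-12 (SD, n = 3 each), with p = 0.6 in the exact two-sided permutation test and differences of -0.112 and 0.268 percentage points within the 2 batches. Jchain had 45 UMIs in B cells, of which 36 lay in 1 cell of DMSO 2. It had none in CWHM-12 1 and CWHM-12 3, which allows up to 1.84 and 17.7 CPM.

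**Figure D2:**
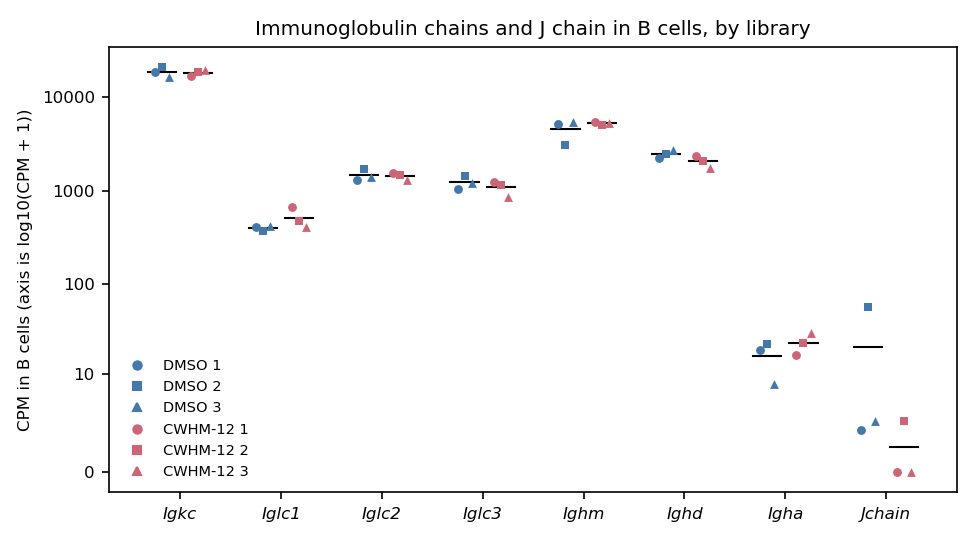
Level of each of the 8 genes in B cells (CPM on an axis of log10(CPM + 1)), with a point for each library and a bar at the mean of the 3 libraries of a treatment. Igkc lies above the other genes in every library, and the DMSO and CWHM-12 points overlap for each gene.

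Across all genes, no difference between CWHM-12 and DMSO passed in B cells. The quasi-likelihood test of edgeR with a batch term and Benjamini-Hochberg adjustment called 0 of 8364 genes (0%), with 98 at an unadjusted p under 0.05, and DESeq2 called 0, with 53. Of the 8 members 7 passed the filter on low counts, Jchain not, and 0 of the 7 were called, with 0 at an unadjusted p under 0.05 by either tool. On the log2 scale, CWHM-12 minus DMSO was -0.0045 ± 0.226 (SE) for Igkc, 0.17 ± 0.242 for Ighm and -0.25 ± 0.211 for Ighd. Iglc1 had the smallest p, 0.0706 (edgeR quasi-likelihood test, adjusted p = 0.9997), with a log2 difference of 0.43 ± 0.214. That difference was 0.73 in batch 2024.6 and 0.00 in batch 2024.12. Iglc2 stood at 0.01 ± 0.211, Iglc3 at -0.12 ± 0.227 and Igha at 0.54 ± 0.539.

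The number of source cells varied more than their transcripts. B cells made up 13.4%, 13.2% and 15.2% of cells other than hepatocytes in DMSO 1, 2 and 3 and 14.9%, 3.99% and 1.38% in CWHM-12 1, 2 and 3. The means were 13.9% ± 1.10 and 6.77% ± 7.19 (SD, n = 3 each), with p = 0.3 in the exact two-sided permutation test. CWHM-12 1 stood within the DMSO range and the other CWHM-12 libraries far below it, so that the difference was 1.61 percentage points in batch 2024.6 and -12.5 in batch 2024.12.

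The genes that act beside the antibody in the B cell were taken from lists. Of the 29 genes of the B cell receptor list, which holds receptor subunits, co-receptors, kinases and B cell transcription factors, all 29 were tested and 0 were called by edgeR with Benjamini-Hochberg adjustment or by DESeq2, with 0 at an unadjusted p under 0.05. Higher values with CWHM-12 were found for 14 of them, and the median log2 difference was -0.01, against 0.00 over all 8364 genes, of which 50.4% were higher. Among the genes of smallest p in the edgeR quasi-likelihood test were the kinase Syk (509 ± 96.6 against 673 ± 76.1 CPM) and the adaptor Pik3ap1 (85.7 ± 16.0 against 54.4 ± 26.9 CPM), each with an adjusted p = 1.00.

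Of the 25 genes of the plasma cell and secretion list 16 passed the filter in B cells, 0 were called by edgeR or DESeq2, and 9 were higher, with a median log2 difference of 0.09. One gene had an unadjusted p under 0.05 with each tool. It was Pdia4, a protein disulfide isomerase of the endoplasmic reticulum, at 67.1 ± 11.8 CPM with DMSO and 117 ± 19.2 CPM with CWHM-12 (SD, n = 3; log2 difference 0.68, edgeR adjusted p = 1.00). Its relative Pdia6 stood at 50.2 ± 16.2 and 88.3 ± 21.6 CPM, and Xbp1, the transcription factor of the secretory programme, at 59.2 ± 20.7 and 76.3 ± 15.1 CPM. None of these passed the adjustment.

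Outside B cells the members separated by cell class. Plasmacytoid dendritic cells (pDC), which release interferon and share parts of the B cell programme, carried Ighm and Iglc3. Ighm stood at 1056, 649 and 1633 CPM in the pDC of DMSO 1, 2 and 3 and at 1426 and 1311 CPM in CWHM-12 2 and 3. CWHM-12 1 had 18 pDC and was left out because a library needed 20 cells of a class. Iglc3 stood at 578, 642 and 613 CPM against 847 and 667 CPM, and a UMI of it was found in 56.5% to 69.0% of the pDC of a library.

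The lambda genes of pDC differed from those of B cells in their proportions. Iglc2, near identical to Iglc3 in the coding sequence shown above, stood at 21.4 to 135 CPM in the same pDC. The 5 libraries with enough pDC gave 573 Iglc3 and 52 Iglc2 UMIs in all. The ratio of Iglc3 to Iglc2 was 6.29 to 30 in pDC against 0.65 to 0.856 in B cells, with no overlap. Over all 6 libraries Iglc1 had 3 UMIs and Jchain none in pDC, and in the 5 libraries Igkc stood at 49.9 to 307 CPM. The fixed B cell markers summed to 1039 CPM in pDC, against 12083 CPM in B cells.

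A low level of Ighm without matching Igkc marked other blood cells. Ighm had a median of 203 CPM in T cells (85.6 to 249 over 6 libraries), 203.5 CPM in NK cells and ILC1 (105 to 228), 202 CPM in type 1 conventional dendritic cells (cDC1, 107 to 246) and 144 CPM in type 2 (cDC2, 82.8 to 191). Monocytes stood at 26.6 to 148 CPM and neutrophils at 23.3 to 90.2 CPM. In none of these did the range reach that of B cells or pDC, and the T cell, NK cell and dendritic cell ranges overlapped one another. DMSO 2 was the lowest library for Ighm in B cells, pDC, T cells, NK cells and ILC1, monocytes, cDC1 and cDC2.

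The ratio of Ighm to Igkc UMIs was higher in the median in these cells than in the rest of the liver. Its median over libraries was 0.277 in B cells (0.147 to 0.329), where both chains are made. It was 6.14 in T cells (1.37 to 21.8), 6.43 in NK cells and ILC1 (1.38 to 18.3), 13.6 in cDC1 (8.63 to 39.5), 8.80 in cDC2 (2.92 to 34.0), 3.83 in monocytes (0.640 to 21.3), 6.38 in neutrophils (5.75 to 7) and 6.21 in pDC (4.26 to 13). Some of these ratios rest on few Igkc UMIs, with 1 to 10 a library in cDC1 and 1 to 12 in cDC2. Libraries without an Igkc UMI gave no ratio, namely CWHM-12 3 in NK cells and ILC1 and CWHM-12 2 in cDC2. Neutrophils had a ratio only in DMSO 3 and CWHM-12 1, from 1 and 4 Igkc UMIs. Among cells not of the blood lineage and Kupffer cells the medians lay near that of B cells. They were 0.261 in Kupffer cells (0.122 to 0.370), 0.229 in liver sinusoidal endothelial cells (LSEC, 0.0447 to 0.295), 0.189 in large vessel endothelium (0 to 0.625), 0.368 in stellate cells (0.0435 to 0.889), 0.206 in cholangiocytes (0.0625 to 0.333), 0.272 in hepatocytes (0.105 to 0.471) and 0.462 in mesothelial cells (0 to 1.38). The ranges of monocytes, stellate cells and mesothelial cells overlapped, and the highest mesothelial library reached the lowest libraries of T cells and of NK cells and ILC1. Barcodes with under 300 genes, leaving out the antibody-rich ones among them, had ratios of 0.2 to 0.4.

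**Figure D3:**
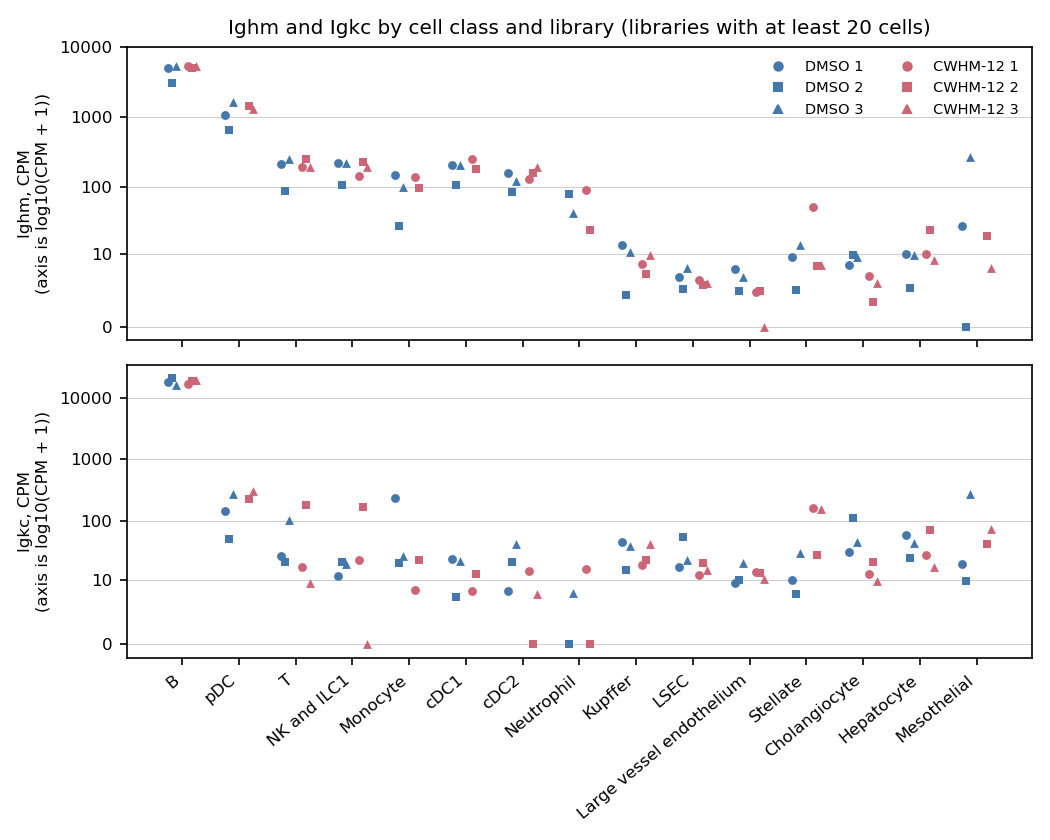
Ighm (upper panel) and Igkc (lower panel) in 15 cell classes, as CPM on an axis of log10(CPM + 1), with a point for each library that had at least 20 cells of the class. Ighm is higher in T cells, NK cells and dendritic cells than in endothelium and hepatocytes, while Igkc outside B cells and pDC has no such step. Erythroid cells, with 762 CPM of Igkc in CWHM-12 2, are not among these classes.

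Igkc in most of the remaining classes was low, and how far it lay in few cells differed between them. Its median over libraries was 30.2 CPM in Kupffer cells (15.3 to 44.6), 18.3 CPM in LSEC (12.1 to 53.7), 35.2 CPM in hepatocytes (16.7 to 71.1), 25.7 CPM in cholangiocytes (9.66 to 110) and 28.6 CPM in stellate cells (5.56 to 162). Over all libraries, 7 of 2462 stellate cells had 10 or more Igkc UMIs and held 70.4% of the Igkc UMIs of the class. Such cells held 62.5% in T cells (4 of 1306 cells), 44.0% in Kupffer cells (13 of 5101), 28.8% in LSEC (8 of 10154) and 28.0% in hepatocytes (5 of 8533). No cell of large vessel endothelium, cDC1, cDC2 or neutrophils had 10. Erythroid cells stood higher than these classes, at 246 CPM over all libraries, and 3 of 91 cells held 83% of their 100 Igkc UMIs. Of these UMIs 96 came from the 25 erythroid cells of CWHM-12 2 (762 CPM). Mesothelial cells stood at 82.8 CPM over all libraries, and 3 of 242 cells held 75.6%.

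Beside the 14 kept antibody-rich barcodes, cells outside the B class with 10 or more UMIs of antibody constant genes and Jchain numbered 174. Of these, 91 were pDC, 15 Kupffer cells, 12 LSEC, 11 T cells, 9 stellate cells and 7 hepatocytes, and 15 were in unnamed clusters. No UMI of 4 B cell genes, among them Cd79a, Cd79b and Ms4a1, was found in 96 of the 174, and 73 of these were pDC. In the rest at least 1 of them was present, and whether they held a B cell and another cell in 1 barcode was not tested. The 10 fixed B cell markers summed to 394 CPM over all Kupffer cells, with 354 to 467 CPM in a library, against 6.52 to 19.3 CPM in LSEC. The Kupffer sum was 354 CPM in CWHM-12 3, which had 82 B cells, and 393 CPM in DMSO 3, which had 766. It is not used here as a measure of B cells among Kupffer cells, and its source was not tested.

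Stellate cells, the vitamin A storing pericytes of the liver, were the class in which Igkc had been noted before. Igkc stood at 10.2, 5.56 and 29.8 CPM in DMSO 1, 2 and 3 and at 162, 27.4 and 155 CPM in CWHM-12 1, 2 and 3, from 18, 7 and 108 UMIs and 163, 78 and 299 UMIs. CWHM-12 1 and 3 stood far above the rest, and CWHM-12 2 lay below DMSO 3. The fitted log2 difference was 2.74, with 4.23 in batch 2024.6 and 1.05 in batch 2024.12. This contrast chose the gene, so no test is given, although edgeR called 0 of 10239 genes (0%) in stellate cells, with 196 at an unadjusted p under 0.05, and DESeq2 0, with 101. Leaving out DMSO 3 moved the difference to 4.31 and leaving out CWHM-12 1 to 1.54. Each of these fits rested on the batch that still had both treatments. CWHM-12 1 was then the only treated library in the first and DMSO 3 the only DMSO library in the second.

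The share of stellate cells with an Igkc UMI was 4.24%, 4.49% and 11.1% with DMSO and 7.93%, 6.29% and 4.01% with CWHM-12, at unequal depth. In the 252, 152 and 534 cells with DMSO and 176, 693 and 424 cells with CWHM-12 that had at least 1000 UMIs, each thinned to 1000, it was 1.19%, 0.658% and 3.75% with DMSO and 3.98%, 2.31% and 1.65% with CWHM-12. CWHM-12 1 was then highest and DMSO 2 lowest, as for the level, whereas CWHM-12 3 lay below DMSO 3 and CWHM-12 2. In CWHM-12 1 a given cell held 95 of the 163 UMIs (58.3%), and in CWHM-12 3 a given cell held 201 of 299 (67.2%). The cell of CWHM-12 1 also had 31 Ighm UMIs and 31 UMIs of the 4 B cell genes. The cell of CWHM-12 3 had 91 Ighg2b and 11 Jchain UMIs and 2 UMIs of the 4 B cell genes.

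Without the cell with most Igkc in each library, the stellate level was 9.07, 4.81 and 21.3 CPM with DMSO and 68.4, 19.3 and 50.8 CPM with CWHM-12, a fitted log2 difference of 1.74. Without cells in which the 8 genes made up 1% or more of UMIs it was 10.2, 5.56 and 29.8 against 68.4, 19.3 and 21.8 CPM, a difference of 1.00. Without cells with any UMI of a B or plasma cell gene it was 9.57, 5.89 and 21.8 against 17.0, 19.4 and 40.4 CPM, a difference of 0.63. The groups overlapped in each case. In all stellate cells the summed B cell markers stood at 19.3, 14.3 and 24.2 CPM with DMSO and at 121, 20.4 and 14.0 CPM with CWHM-12, with 7 to 10 of the 10 markers detected. Ighm, the other member that passed the filter in stellate cells, stood at 9.07, 2.38 and 13.5 CPM against 49.8, 6.32 and 6.73 CPM. Only CWHM-12 1 was high for both.

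**Figure D4:**
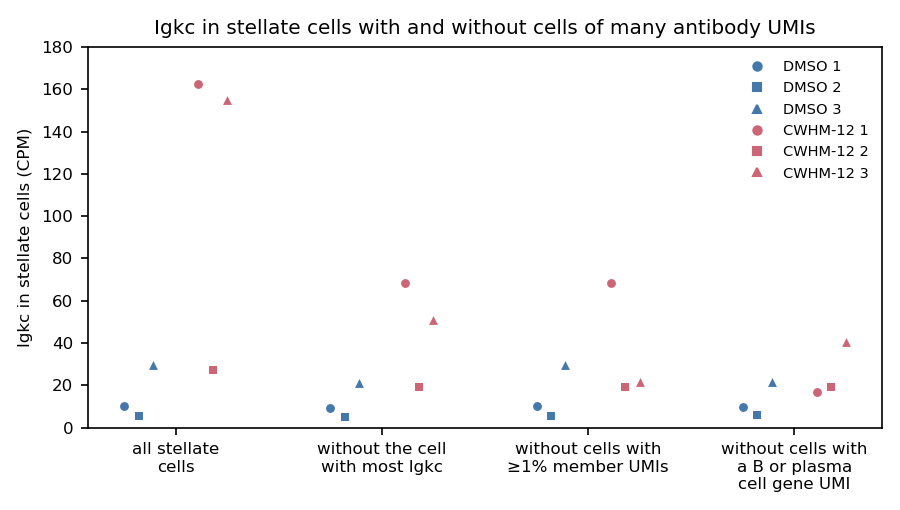
Igkc in stellate cells (CPM, linear axis) for each library, in all cells and after leaving out 3 sets of cells: the cell with most Igkc, cells with 1% or more of UMIs from the 8 genes, and cells with a UMI of a B or plasma cell gene. CWHM-12 1 and 3 stand at 162 and 155 CPM in all cells and at 17.0 and 40.4 CPM in the last set.

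In the classes other than B and stellate cells, members could be tested in 12 classes, in 24 pairs of gene and class. edgeR with Benjamini-Hochberg adjustment called 0 of the 24, and 4 had an unadjusted p under 0.05. Of all genes tested, 1.75% to 5.34% of a class had such a p, among them 2.39% in cholangiocytes, 5.14% in mesothelial cells, 1.95% in Kupffer cells and 2.11% in LSEC, the classes of the 4. DESeq2 gave the same numbers, 0 and 4. Over all genes edgeR called 0.373% in NK cells and ILC1, 0.146% in cDC2, 0.0683% in mesothelial cells and 0% in the other 9 classes. The fitted value was lower with CWHM-12 in 17 of the 24 and higher in 7, while over all genes 46.1% to 54.8% of a class were lower. Leaving out DMSO 1, DMSO 2 or CWHM-12 2 gave 1 call each, Igkc in mesothelial cells in the first 2 cases and Igkc in monocytes in the third, and without the filter on low counts there were 4.

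The 4 pairs were Igkc in cholangiocytes and in mesothelial cells, Iglc3 in Kupffer cells and Ighd in LSEC, none of which passed the adjustment. In cholangiocytes, the cells that line bile ducts, Igkc stood at 30.8, 110 and 44.6 CPM with DMSO and at 12.8, 20.6 and 9.66 CPM with CWHM-12, without overlap, as were 5.03% of all genes of the class in that direction. The log2 difference was -1.87 ± 0.532 (SE; edgeR adjusted p = 0.999), and -2.10 and -1.52 within the batches. A given cell held 62 of the 68 UMIs of DMSO 2 and another 47 of the 96 of DMSO 3. Without the cell with most Igkc in each library, DMSO 2 stood at 9.88 CPM and CWHM-12 2 at 18.1 CPM, and the groups overlapped.

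In mesothelial cells, the outer lining of the liver, Igkc stood at 19.5, 9.75 and 278 CPM with DMSO and at 41.4 and 73.4 CPM in CWHM-12 2 and 3, and CWHM-12 1 was left out with 11 cells. The fitted log2 difference was -2.21 ± 0.453 (edgeR adjusted p = 0.308), which rested on DMSO 3, the library that stood for DMSO in the batch with both treatments, where 79 of 82 UMIs were in 1 cell. With a stricter cell filter or clusters made with immunoglobulin genes the difference was 2.41 or 2.47. Iglc3 in Kupffer cells stood at 2.56, 3.36 and 3.19 CPM against 1.13, 1.5 and 1.08 CPM, with a log2 difference of -1.31 ± 0.406 (edgeR adjusted p = 0.997). Ighd in LSEC stood at 4.13, 3.90 and 2.15 CPM against 0.994, 1.24 and 0.675 CPM, with a log2 difference of -1.52 ± 0.451 (edgeR adjusted p = 0.996). Neither of these last 2 pairs overlapped between groups, as 6.04% of all genes of Kupffer cells and 6.34% of those of LSEC in that direction did not, and both rest on 5 to 25 UMIs a library. A given Kupffer cell held 5 of the 10 Iglc3 UMIs of DMSO 1, and a given cell of LSEC 9 of the 13 Ighd UMIs of DMSO 2. With only that cell's library changed, each pair overlapped: Iglc3 in DMSO 1 then stood at 1.29 CPM and Ighd in DMSO 2 at 1.2 CPM. With the top cell of every library left out, the highest CWHM-12 values were 1.09 and 0.953 CPM, below these.

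The antibody chains found at low level in other cells were set beside those of the antibody-rich barcodes of the same library. In kept cells other than B cells, pDC and antibody-rich barcodes, Igha made up 0.251%, 0% and 1.99% of the heavy chain UMIs of DMSO 1, 2 and 3 and 1.05%, 9.49% and 10.9% of those of CWHM-12 1, 2 and 3. In the antibody-rich barcodes of the same libraries it made up 0%, 0.0242% and 18.3% and 0.194%, 66.8% and 66.9%, and in B cells at most 0.412%. The 3 libraries with IgA barcodes were the 3 with the highest Igha share in other cells, and no test was made of this order over 6 libraries. The other cells held 2, 0 and 23 Igha UMIs with DMSO and 10, 78 and 72 with CWHM-12. In CWHM-12 3 a given stellate cell held 7 of the 10 of its class and a given Kupffer cell 6 of 13. The heavy chain UMIs include the Ighm of T cells, NK cells and dendritic cells, so the share also varies with the mix of classes.

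Iglc1 was compared in the same way. It made up 2.41%, 9.48% and 2.83% of light chain UMIs in other cells with DMSO and 3.49%, 1.70% and 10.2% with CWHM-12. In antibody-rich barcodes it made up 0.120%, 25.1% and 0.337% and 0.193%, 0.201% and 28.8%, and in B cells 1.53% to 3.29%. DMSO 2 and CWHM-12 3, the libraries with Iglc1 barcodes, were the highest in other cells. The counts are small, with 51 and 129 Iglc1 UMIs in the other cells of these libraries.

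**Figure D5:**
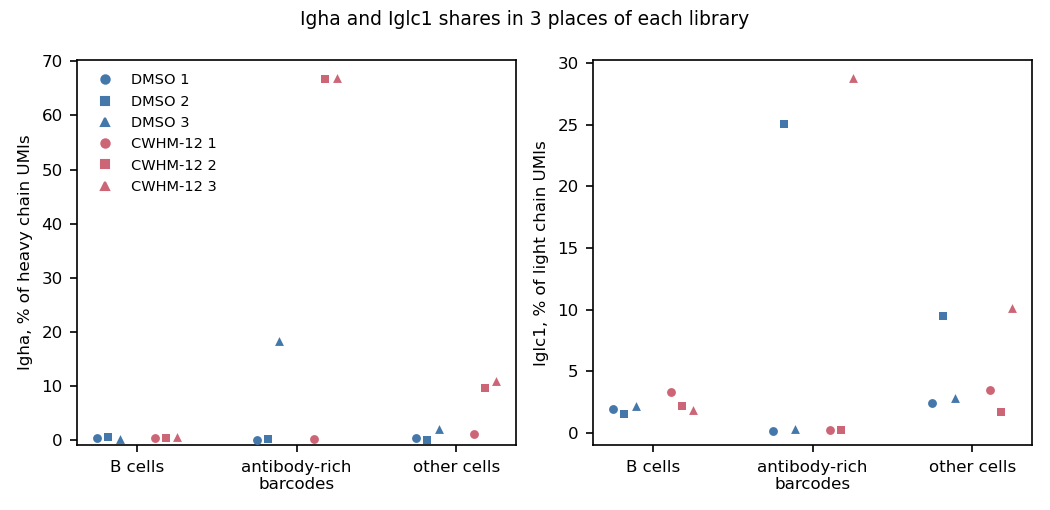
Igha as a percent of heavy chain UMIs (left) and Iglc1 as a percent of light chain UMIs (right) in B cells, antibody-rich barcodes and other kept cells, with a point for each library. CWHM-12 2 and 3 are highest for Igha, and DMSO 2 and CWHM-12 3 for Iglc1, both in antibody-rich barcodes and in other cells.

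Barcodes with under 300 genes were not kept as cells, and they held antibody transcripts too. The 8 genes gave 228, 207 and 386 UMIs per 1000000 UMIs not from mitochondria in DMSO 1, 2 and 3 and 1485, 5776 and 127 in CWHM-12 1, 2 and 3, with p = 0.4 in the exact two-sided permutation test and differences of 1268 and 2565 within the batches. The median share of mitochondrial UMIs in such barcodes was 75.3% to 87.9% in a library. CWHM-12 1 and 2 each held 1 antibody-rich barcode of under 300 genes, with 8.47% and 0.609% mitochondrial UMIs. Without these the values were 225, 170 and 127, all below DMSO 1 and DMSO 3 and on either side of DMSO 2, and the difference was -99.5 (exact permutation p = 0.2).

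Receptors that bind or carry antibody were followed in the cells that use them. The list of 16 genes holds Pigr, the neonatal receptor Fcgrt with its partner B2m, and the Fc gamma receptors. edgeR with Benjamini-Hochberg adjustment and DESeq2 called 0 of 12 tested genes in LSEC, 0 of 12 in Kupffer cells, 0 of 11 in hepatocytes and 0 of 7 in cholangiocytes. Unadjusted p under 0.05 was reached by 0, 0, 0 and 3 of them with either tool, against 2.11%, 1.95%, 2.05% and 2.39% of all genes of these classes with edgeR. The median log2 difference was 0.11, 0.03, -0.21 and 0.45, against 0.02, 0.01, -0.05 and 0.01 over all genes of each class, and 9, 8, 4 and 5 were higher with CWHM-12.

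In LSEC the smallest p by the edgeR quasi-likelihood test belonged to Fcgr3 (5.07 ± 1.10 against 3.35 ± 0.860 CPM), Fcrla (7.59 ± 1.30 against 6.82 ± 1.88 CPM) and Fcgrt (350 ± 197 against 562 ± 67.0 CPM). In Kupffer cells they were Fcgr2b (36.0 ± 4.95 against 32.7 ± 10.6 CPM), Pigr (46.1 ± 27.3 against 36.7 ± 29.0 CPM) and Cd5l, a circulating partner of IgM (5300 ± 749 against 6442 ± 668 CPM). The mean of Pigr was lower with CWHM-12, but its fitted log2 difference with the batch term was 0.25 ± 0.188, with 0.22 and 0.34 within the batches. In hepatocytes they were Fcgr4, Fcgr3 and Asgr2, the last a subunit of the asialoglycoprotein receptor (100.0 ± 32.5 against 141 ± 23.1 CPM).

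Cholangiocytes, which had the highest Pigr level of the 4 classes, gave the 3 genes with an unadjusted p under 0.05. Pigr stood at 1774 ± 336 CPM with DMSO and 1298 ± 212 CPM with CWHM-12 (SD, n = 3), a log2 difference of -0.56 ± 0.214 (edgeR adjusted p = 0.999), with -0.68 and -0.46 within the batches. Cd5l stood at 13.5 ± 6.01 and 69.0 ± 78.6 CPM and Fcer1g at 16.0 ± 1.51 and 44.0 ± 43.3 CPM (edgeR adjusted p = 0.999 for each). Both are genes of Kupffer cells, and the part of such cells in these values was not tested. Their log2 differences were 3.61 and 2.33 in batch 2024.6 and 0.37 and 0.22 in batch 2024.12. The SD of both genes with CWHM-12 was about as large as the mean. Without DMSO 3 the log2 difference of Cd5l was 3.82. Batch 2024.12 then had no DMSO library, so this value rested on CWHM-12 1 against DMSO 1 and 2.

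Over 84 sums of a class and a library from 15 classes, genes with a pattern like the members were found by Pearson correlation of log2(CPM + 1), given as a description since sums of a library share depth and cells. Igkc was most like Fcmr, the IgM receptor (0.89), and Cd79a (0.88). Among the genes most like Ighm were Map4k1 (0.89) and Gpr18 (0.86), genes of lymphocytes in general. Igha was most like Pou2af1 (0.74), 4930426D05Rik (0.73) and Klhl14 (0.73), at a level no higher than 29.5 CPM in any sum. The antibody-rich barcodes, which held most Igha and Jchain UMIs, were in none of these sums. For Jchain the highest values were 0.49 for Gm47730, 0.47 for Pou2af2 and 0.47 for 1700027J07Rik, at a level no higher than 56.8 CPM in any sum.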

How the data were processed

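Whole-number UMI counts per gene and barcode, as deposited by the authors (per the file headers), were used for 6 BD Rhapsody libraries. Per the submitters' processing notes, reads were placed on GRCm39. Which aligner, annotation release and barcode selection were used is not given in the sources used here.

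Barcodes with 300 or more genes, 500 or more UMIs and no more than 30% of UMIs from mitochondria were kept (38697), and 715 with a Scrublet doublet score of at least 0.25 were removed. Cells were clustered with scanpy 1.11.5 and leidenalg 0.10.2 (2000 variable genes, 40 principal components, 20 neighbours, resolution 1.5) without the 199 immunoglobulin genes. Of 42 clusters 33 were named from markers, as cells that resemble the named type, and 9 (3402 cells) stayed unnamed. With immunoglobulin genes 97.1% of cells kept their class, and 2606 of 2608 B cells were shared. Counts were summed by class and library where a library had at least 20 cells, and 15 classes were tested by the edgeR 4.0.16 quasi-likelihood method (R 4.3.3; TMM, filterByExpr, batch term, Benjamini-Hochberg adjustment at 0.05 over all genes of a class). DESeq2 1.42.0 was an alternative. Levels are CPM over all UMIs of a class in a library. Shares were compared by exact two-sided permutation tests over libraries. The edgeR fit was tested on counts simulated from the B cell sums without a batch effect, and that test covered no other step.

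The 8 genes and the gene lists were chosen with earlier results of these data known. The text names all 8 genes, of each list every gene called or else the 3 of smallest p, for Igkc, Ighm, Igha and Jchain the 3 genes of highest correlation, and the other heavy chain constant genes as companions. Some genes that this rule names are not reported here. Mzb1, a plasma cell gene of the planned gate, was not analysed here, so plasma-like cells needed UMIs of both Derl3 and Tnfrsf17. Alternatives were other normalization, filters, doublet scores, clusterings, a replicate block and leaving out each library.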

Additional observations from a re-analysis of the deposited data

Results flagged for a closer look

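Barcodes with under 300 genes were outside the cells compared between treatments, and 2 of them held most of the antibody transcripts of all such barcodes in their library. In CWHM-12 1, 1 barcode had 947 UMIs of the 8 genes, out of 1116 in all 2780 small barcodes of the library, with Igkc as its light chain and Ighg2c as its heavy chain. In CWHM-12 2, 1 barcode had 1462 of 1506, with Igkc and Ighm. No small barcode of the DMSO libraries held more than 26 such UMIs.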

How the results depend on the processing

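Limits came first from depth and cell number: CWHM-12 3 held 82 B cells, Igha had 101 UMIs in B cells and Jchain 45, and outside B cells and pDC most members had a few UMIs a library. With 3 libraries a treatment, the exact permutation tests could not go below p = 0.1. Leaving out pDC, monocytes, cDC1, neutrophils or mesothelial cells of libraries under 20 cells leaves fewer libraries in those fits. The choice of the 27 antibody-rich barcodes, the leaving out of 1 cell a library in stellate cells, cholangiocytes, Kupffer cells and LSEC and the count of plasma-like cells before the doublet score were added after seeing the data. The alternative that asked for all 3 plasma cell genes was not run, because Mzb1 was not analysed here.

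In all, 62 results were recomputed under alternative settings, which gave 899 recomputed values. Among the results that answer a comparison, 129 values stayed the same, 10 moved and 8 reversed. For counts of genes called, the same means an equal or similar count. For Igkc in stellate cells it means a value within an SD of the main one. For the shares compared by permutation it means the same direction and side of the threshold. For the named genes 693 values kept the direction and the side of the threshold, 6 newly passed the threshold and 53 reversed. Of the 50 named results 24 reversed at least once. None of the reversed values was past the threshold, and the causes were not tested. Without the filter on low counts, 1 member was called in B cells (Jchain), 4 in other classes and 1 gene of the transport list. Leaving out 1 library at a time gave 0 to 1 member called in other classes and 0 to 1 gene of the transport list. Igkc in stellate cells was 1.54 to 4.31 (log2) without 1 library, 0.996 without cells with 1% or more member UMIs and 0.635 without cells with a UMI of a B or plasma cell gene. The difference in the lambda share was -1.42 to 1.29 percentage points without 1 library and 0.00305 at a doublet score of 0.15. That of the Igha share was -0.0130 to 0.136 without 1 library. Member UMIs per 1000000 in small barcodes differed by -63.3 with under 200 genes and by -99.5 without antibody-rich barcodes.

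In B cells, leaving out 1 library gave log2 differences of -0.30 to 1.74 for Igha, -0.48 to 0.016 for Ighd, -0.017 to 0.40 for Ighm, -0.22 to 0.25 for Igkc, -0.051 to 0.11 for Iglc2 and -0.22 to 0.015 for Iglc3. Igkc in B cells was 0.0017 with DESeq2, 0.0018 with its size factors, 0.0028 with a stricter cell filter, 0.029 at a doublet score of 0.15 and 0.052 when clusters used immunoglobulin genes. Iglc2 in B cells was -0.034 without a batch term and -0.040 without the filter. In other classes, leaving out 1 library gave -0.23 to 0.22 for Igkc and -0.23 to 1.08 for Iglc2 in pDC, -0.18 to 0.35 for Ighm and -1.61 to 0.16 for Igkc in T cells, -0.27 to 0.18 for Ighm in NK cells and ILC1, -0.13 to 0.94 in monocytes and -0.19 to 0.67 in cDC1. It gave -2.13 to 0.027 for Ighd and -0.71 to 0.069 for Ighm in Kupffer cells, -0.89 to 0.055 for Ighm in LSEC, -0.76 to 0.57 for Igkc in large vessel endothelium, -1.11 to 3.03 for Ighm in stellate cells and -0.99 to 0.0016 for Fcgr3 in hepatocytes. Without a batch term the log2 differences were 0.29 for Ighm and 0.76 for Igkc in pDC, 0.44 for Igkc in T cells, 0.029 for Ighm in NK cells and ILC1 and -0.35 for Pigr in Kupffer cells. A stricter cell filter gave 0.54 for Igkc in pDC and 2.41 in mesothelial cells. Clusters made with immunoglobulin genes gave 0.12 for Igkc in large vessel endothelium and 2.47 in mesothelial cells. A doublet score of 0.15 gave 0.024 for Igkc in pDC, -0.014 for Ighm in stellate cells and -0.36 for Fcer1g in cholangiocytes. Ighm in stellate cells was -0.077 without cells with 1% or more member UMIs. Without cells with a UMI of a B or plasma cell gene, Igkc in T cells was 0.70, Ighm in stellate cells -0.62 and Ighm in hepatocytes -0.059.

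The labels do not state that the replicate numbers pair the libraries, and DMSO 2 and CWHM-12 2 are from different batches. The deviations of same-numbered B cell sums from their group means had correlations of -0.017, -0.0015 and -0.056. Other pairs had -0.093 to 0.084. With 3 libraries a treatment these values cannot decide whether libraries are paired. With the replicate number as a block, 0 members were called in B cells and 0 in other classes. The block turned Iglc2 in B cells to -0.028, Ighm and Igkc in pDC to 0.41 and 0.99, Ighm in NK cells and ILC1 to 0.072 and Pigr in Kupffer cells to -0.34. The mean paired differences of the shares equal the unpaired ones by arithmetic, so they do not bear on pairing. An example is -8.06 percentage points for Ighd of Ighm and Ighd (exact permutation p = 0.5, where 3 pairs allow few values of p).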

Other observations

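The other heavy chain constant genes divided like the members. Ighg1 had 8359 UMIs, of which 97.6% were in antibody-rich barcodes and 7828 came from DMSO 3. Ighg2b had 7606 UMIs, 94.6% of them in antibody-rich barcodes. Ighg3, by contrast, had 149 UMIs, of which 76.5% were in B cells and 1 in an antibody-rich barcode. Ighe had 15 UMIs, none in B cells or antibody-rich barcodes, and 13 of them in barcodes of DMSO 3 that were not kept.

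Antibody-rich barcodes 1 and 3 of DMSO 3 both had Ighg1 as heavy chain and the variable gene Ighv8-12, with 88 and 2 UMIs of it. Their leading light chain variable genes differed (Iglv1 with 43 UMIs and Igkv4-61 with 2). Iglv1 is a lambda gene, whereas Igkc held 99.0% of the light chain constant UMIs of barcode 1. A light chain rearrangement was therefore not assigned to either barcode.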
